A study of Mus musculus with 16 samples.

Results

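NOD EpiSC-like ES line 1, an epiblast stem cell (EpiSC)-like line from the non-obese diabetic (NOD) mouse, was compared with EpiSC of a non-NOD strain. The comparison used the 6 of 16 arrays in the series whose titles name these cells. The NOD EpiSC-like ES line was hybridised at passages 5, 7, 9 and 10 (4 arrays), and the EpiSC at passages 12 and 20 (2 arrays). Colonies of both were separated from their cultures mechanically before RNA was isolated, per the labels' protocols, and total RNA was labelled with Cy3 for one-colour mouse arrays. The line's 4 arrays are passages of 1 line and the EpiSC arrays are passages 12 and 20. Nothing in the labels says that they stand for separate derivations. The p-values rest on the spread between arrays within the 7 groups of all 16 arrays. They do not measure a spread between derivations of either compared group. Strain and derivation differ together between the groups and cannot be told apart. No treatment or transgene is labelled for either group. Other groups used below are the NOD EpiSC-like iPS line 6 (passages 7 and 12), 3 NOD ES arrays whose titles carry codes that the labels do not explain, and 2 arrays of non-NOD 129 ES mESM cells (passage 8) with the same source label. ES cells were depleted of embryonic fibroblasts on gelatin, a step not named for the EpiSC and EpiSC-like lines.

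EpiSC are derived from the post-implantation epiblast and depend on Nodal or activin and FGF signals. They keep Pou5f1 and Sox2, express epiblast genes such as Fgf5 and Otx2, and lack most of the naive network that LIF maintains in ES cells. Cultures of EpiSC commonly hold cells that have begun to express mesendoderm or neural genes. Both kinds of culture can carry fibroblasts from the feeder layer.

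The level given for a gene is the log2 intensity of its probe minus the array's 75th percentile, so a level of 0 is the intensity at that percentile. A gene was called when limma's Benjamini-Hochberg adjusted p over 23203 genes was under 0.05, and errors of differences are standard errors (SE, n = 4 and n = 2). Of the gene spots, 56.8% to 88.5% were well above background on the NOD EpiSC-like ES arrays and 55.9% and 71.7% on the EpiSC arrays. The fit shared 1 estimate of the spread over all 16 arrays. A pair of arrays outside this comparison, NOD ES replicate 1 and EpiSC iPS replicate 2, stood apart with 26.3% and 40.5% of gene spots well above background, and counts without them are given beside the first ones.

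The labels were set against marker genes. All 10 genes of the pluripotency core list were well above background on each of the 6 arrays, and 12 of 14 primed epiblast markers were so on all arrays within each group. Of 19 naive ES markers tested, 12 were well above background on all 4 NOD EpiSC-like ES arrays and 13 on both EpiSC arrays. On no array of the line were 2 of the 19 so, and on neither EpiSC array were 5. Among them, Zfp42 was well above background on 1 of 4 NOD EpiSC-like ES arrays and on neither EpiSC array. Over 22997 genes, the NOD EpiSC-like ES arrays correlated with each other at r = 0.953 to 0.988, with EpiSC at 0.924 to 0.955, with the NOD EpiSC-like iPS line at 0.873 to 0.927 and with the 129 ES mESM cells at 0.805 to 0.837. These correlations are across genes, which are not independent replicates, and describe only the order of likeness.

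In the NOD EpiSC-like ES line 1152 genes rose (4.96% of those tested) and 998 fell (4.30%) relative to EpiSC. The rises were larger. Their median log2 difference was 1.87, 535 exceeded 2 and 112 exceeded 4, and the highest was 9.34. The falls had a median of -1.01, 21 exceeded 2 in size and 2 exceeded 4. Of the genes that rose, 135 were well above background on no EpiSC array, while 8 that fell were so on no NOD EpiSC-like ES array. No called gene had overlapping groups, so a lack of overlap given below for a called gene adds no support to its call. Many genes that were not called also had groups that did not overlap. Without the pair of arrays that stood apart, 3499 genes rose (15.1%) and 3899 fell (16.8%), and all 2150 first calls were kept with their direction. The counts of gene lists below are read against these shares, which were 4.96% and 4.30% with all arrays. With slide as a fixed block 1080 of the 2150 remained called in the same direction, and 16 genes described below lost their call: Acvr2a, Aldh1a2, Bub1, Col6a2, Cyp26a1, Dkk1, Dsp, Fgf5, Foxj1, Fzd5, Gldc, Lhx1, Lum, Nodal, Pgk1 and Slc2a3. Within the slides that held an array of each group 2145 (passage 7 minus passage 12) and 2149 (passage 5 minus passage 20) had the same sign. That sign was fixed in advance, because no called gene had overlapping groups, and it adds no support. Without EpiSC passage 12 or passage 20 the calls numbered 448 or 541, and without NOD EpiSC-like ES passage 10, 5 or 9 they numbered 1408, 1270 or 1225.

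**Figure D1:**
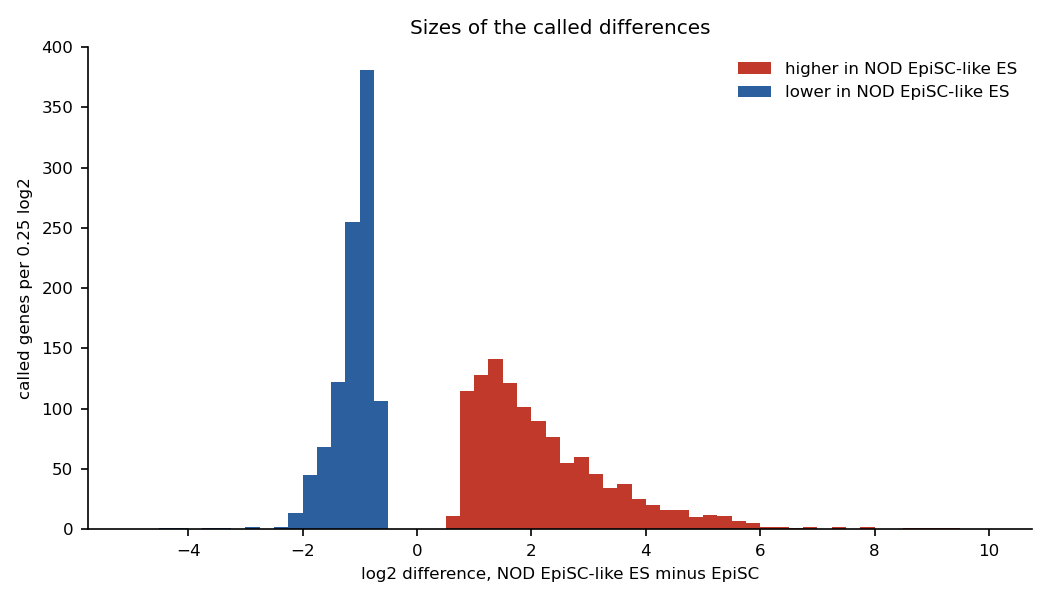
Histogram of the log2 difference, NOD EpiSC-like ES minus EpiSC (x axis), of the 2150 called genes, counted per 0.25 log2 (y axis). The 1152 rises (red) reach 9.34 with a median of 1.87, while the 998 falls (blue) have a median of -1.01.

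The pluripotency core had a negative difference in all 10 tested members, with a median log2 difference of -1.54 against 0.10 over all genes. Of the 10, 1 fell and 9 were not called. Lin28a, an RNA-binding protein that blocks let-7 maturation, had levels of -0.77, -0.54, -0.62 and -0.46 in the NOD EpiSC-like ES line (passages 5, 7, 9 and 10), against 1.67 and 1.31 in EpiSC (passages 12 and 20). Every array of the line lay below both EpiSC arrays, and Lin28a fell by 2.09 ± 0.22 (limma adjusted p = 0.000288). Pou5f1 (Oct4) had levels of -1.47, -1.52, -1.12 and -0.61 in the NOD EpiSC-like ES line, against 0.88 and 0.27 in EpiSC. Its groups did not overlap, and the difference of -1.76 ± 0.69 was not called (limma adjusted p = 0.145; 0.00579 without the pair of arrays that stood apart). Nanog levels were -2.82 to -2.14 in the NOD EpiSC-like ES line, against -0.81 and -0.48 in EpiSC (difference -1.77, limma adjusted p = 0.263). Sox2 departed from the rest of the list, with levels of 2.01 to 2.44 in the NOD EpiSC-like ES line, against 2.21 and 2.38 in EpiSC. Its groups overlapped, and the difference was -0.08 ± 0.60 (limma adjusted p = 0.953). Without the pair of arrays that stood apart, 7 of the 10 fell. In bulk RNA a lower level can come from fewer cells of a type or from less RNA per cell, which cannot be told apart.

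Primed epiblast markers followed the core. Of 14 tested, 5 fell and none rose (median -1.31), and 10 fell without the pair of arrays that stood apart. Fgf5, the growth factor that marks the epiblast, had levels of 0.96, 1.21, 1.08 and 0.87 in the NOD EpiSC-like ES line, against 2.94 and 2.93 in EpiSC. The EpiSC arrays were higher than every array of the line, and Fgf5 fell by 1.90 ± 0.34 (limma adjusted p = 0.00557). Dnmt3b, a de novo DNA methyltransferase, had levels of 0.59 to 0.76 in the NOD EpiSC-like ES line, against 2.60 and 2.76 in EpiSC, and fell by 1.98 ± 0.31 (limma adjusted p = 0.00292). Falls of nearly the same size were measured for the POU factor Pou3f1 (-1.92), the SOX factor Sox11 (-1.88) and the ligand Nodal (-1.72). Otx2, a homeobox factor of the epiblast, had levels of 0.63 to 0.98 in the line, against 2.39 and 2.47 in EpiSC, with a difference of -1.64 that was not called (limma adjusted p = 0.0808). The zinc finger gene Zic2 differed by -0.03 and was not called.

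Mesendoderm genes, which EpiSC cultures express as cells move towards the primitive streak, were lower too: 5 of 17 fell, 1 rose and the median was -0.57. Gsc, the organiser homeobox gene, had levels of 0.69, 0.86, 0.73 and 0.51 in the NOD EpiSC-like ES line, against 2.80 and 2.67 in EpiSC. It fell by 2.04 ± 0.37 (limma adjusted p = 0.00679). T (brachyury), a streak marker, had levels of -0.45 to -0.24 in the NOD EpiSC-like ES line, against 1.58 and 1.55 in EpiSC, and fell by 1.91. Hhex (-2.01), a gene of the anterior endoderm, Eomes (-1.93), a T-box factor, and Lhx1 (-1.79), a LIM homeobox factor, also fell. A second Hhex probe read -0.66. The called falls of the core, primed and mesendoderm lists lay between -2.09 and -1.72, a range narrowed because calling leaves small differences out. All tested members ran from -2.09 to -0.08 (core), -1.98 to 0.25 (primed) and -2.22 to 1.20 (mesendoderm). Levels in EpiSC of the genes called lower ranged from -1.42 (Eomes) to 4.05 (Pou3f1). Kdr, a VEGF receptor of early mesoderm and endothelium, rose by 1.20 ± 0.30 (limma adjusted p = 0.0327).

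**Figure D2:**
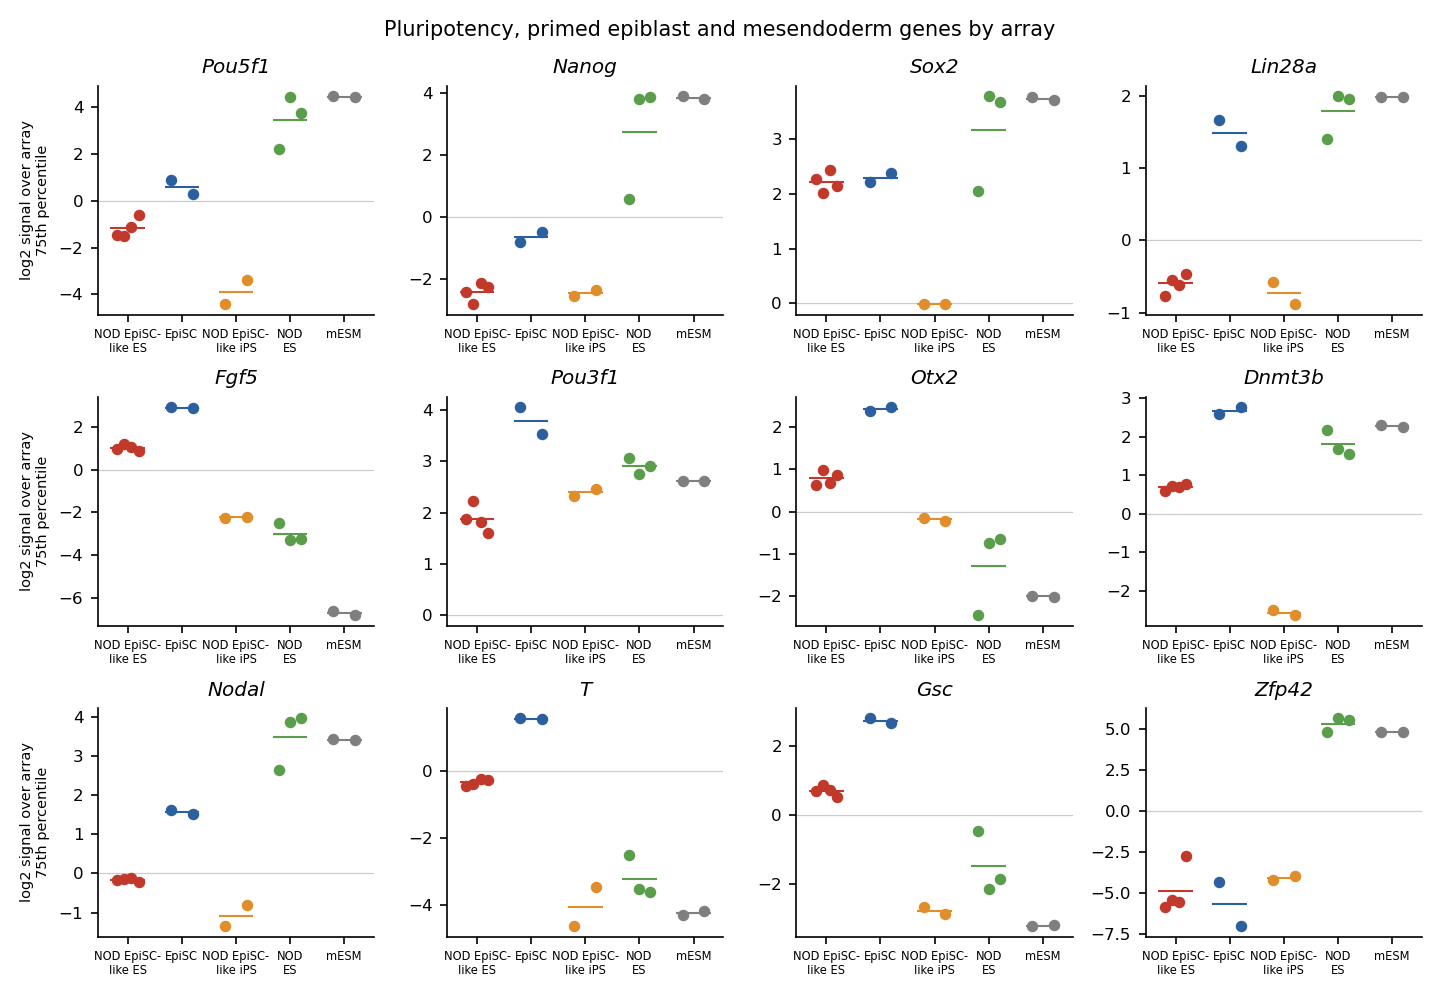
Level of 12 genes (log2 signal over the array's 75th percentile, y axes) on each array of 5 groups (x axes, points; bars are group means). In the left pair of groups, NOD EpiSC-like ES lies below EpiSC for Pou5f1, Nanog, Lin28a and the primed and mesendoderm genes, and the groups overlap for Sox2 and Zfp42.

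Of the signalling lists, the Nodal pathway showed the most falls, with 5 of 17 (median -0.80) and no rise. The type II activin receptor Acvr2b had levels of -0.57, -1.14, -0.63 and -0.36 in the NOD EpiSC-like ES line, against 1.36 and 1.22 in EpiSC, and fell by 1.97 ± 0.31 (limma adjusted p = 0.00295). All arrays of the line were below the EpiSC arrays. The Nodal-related ligand Gdf3 (-1.93), the feedback inhibitor Lefty2 (-1.77), Nodal itself and the receptor Acvr2a (-1.03) completed the 5, although a second Acvr2a probe read 0.31. Among FGF ligands and receptors 1 of 12 rose and 1 fell: Fgfr4, an FGF receptor, rose by 1.51 ± 0.25 (limma adjusted p = 0.00438), and Fgf5 fell. Another Fgfr4 probe read 0.38. The WNT antagonist Dkk1 (-1.77) and the WNT receptor Fzd5 (-1.59) fell out of 27 WNT ligands, receptors and antagonists, and with slide as a fixed block neither was called (limma adjusted p = 0.149 and 0.123). A second Fzd5 probe read -0.44. Over all genes 4.96% rose and 4.30% fell, and these few FGF and WNT calls are near those shares. Of the BMP pathway 0 of 19 genes were called by limma (1 at an unadjusted p under 0.05), with a median of -0.07.

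Of 19 naive ES markers tested 1 rose, a share close to the 4.96% of all genes, and none fell. Their median was 0.24, or 0.12 with dim genes set to their bounds. The riser was Gbx2, a homeobox factor of the naive network that neural tissue also uses. Its levels were -1.21, -1.37, -1.22 and -0.78 in the NOD EpiSC-like ES line, against -3.24 and -2.70 in EpiSC (difference 1.83 ± 0.38, limma adjusted p = 0.0137). A second Gbx2 probe read -0.06, so the rise rests on 1 of 2 probes. Klf4, a Krüppel-like factor that fibroblasts also express, had levels of 5.51 to 6.03 in the NOD EpiSC-like ES line, against 5.48 and 5.62 in EpiSC, and these overlapped. Esrrb, an orphan nuclear receptor of the naive network, was dim in both groups, at -6.25 to -3.94 in the NOD EpiSC-like ES line, against -5.47 and -4.48 in EpiSC.

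Falls were frequent among genes of growth. Of 26 cell cycle and replication genes 12 fell, none rose and 25 had a negative difference (median -0.84). The mitotic checkpoint kinase Bub1 had levels of 0.14, 0.50, 0.21 and 0.34 in the NOD EpiSC-like ES line, against 1.66 and 1.78 in EpiSC (difference -1.42 ± 0.33, limma adjusted p = 0.0217). The replicative helicase subunit Mcm5 (-1.33) and topoisomerase Top2a (-1.20) fell as well, although another Top2a probe read -0.15. With slide as a fixed block 6 of the 26 were called lower. Of 11 oncofetal and Myc family genes 6 fell (median -1.37), among them Lin28b, the partner of Lin28a in blocking let-7. Lin28b had levels of -1.23, -1.67, -1.36 and -1.02 in the NOD EpiSC-like ES line, against 0.60 and 1.14 in EpiSC, and fell by 2.19 ± 0.24 (limma adjusted p = 0.000316). The Myc paralogs Mycl (-1.83) and Mycn (-1.33) fell too, although a second Mycn probe read -0.54.

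Glycolysis and glucose transport genes gave 9 falls of 18 (median -0.72), led by the glucose transporter Slc2a3. Its levels were 3.88, 3.84, 4.01 and 3.90 in the NOD EpiSC-like ES line, against 5.59 and 5.49 in EpiSC (difference -1.64 ± 0.37, limma adjusted p = 0.0194). Phosphoglycerate kinase Pgk1 fell by 1.00. With slide as a fixed block limma called 0 of the 18 (13 at an unadjusted p under 0.05). Of 12 serine, glycine and one-carbon enzymes 3 fell: Shmt1, the cytosolic serine hydroxymethyltransferase (-1.63), Gcat (-1.38) and the glycine decarboxylase Gldc (-0.96). A second Shmt1 probe read -0.20. Of 12 cytochrome c oxidase subunits limma called 0 (3 at an unadjusted p under 0.05), and their median was -0.07.

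**Figure D3:**
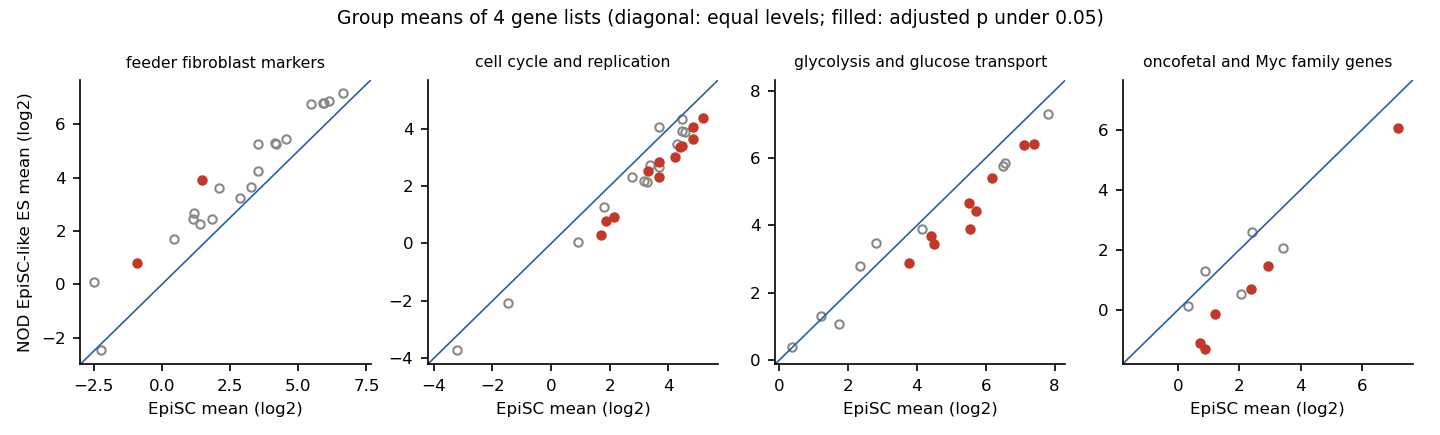
Group mean levels (log2 signal over the array's 75th percentile) in NOD EpiSC-like ES (y axes) against EpiSC (x axes) for 4 gene lists, with the line of equal levels. Fibroblast markers lie mostly above the line, and cell cycle, glycolysis and oncofetal genes mostly below it, with called genes filled.

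Epithelial genes had a negative difference in 13 of 16 cases, and 5 fell (median -1.09). Keratin 19 (Krt19) had levels of 1.59, 1.47, 1.28 and 1.50 in the NOD EpiSC-like ES line, against 2.84 and 2.80 in EpiSC (difference -1.36 ± 0.20, limma adjusted p = 0.00178). The tight junction claudins Cldn6 (-1.34) and Cldn7 (-1.14) and desmoplakin Dsp (-1.17) fell with it. Cdh1 (E-cadherin) differed by -1.57 and was not called (limma adjusted p = 0.139). Uhrf1, which recruits the maintenance methyltransferase, fell by 1.48, and with Dnmt3b made 2 falls among 8 DNA methylation enzymes.

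The 20 largest rises are described by gene, with no test of what they share. Of the 20, 18 were also higher on both NOD EpiSC-like iPS arrays than on both EpiSC arrays. Lyz1, a lysozyme of Paneth cells, had levels of 4.66, 4.69, 4.64 and 4.60 in the NOD EpiSC-like ES line, against -4.84 and -4.55 in EpiSC, and rose by 9.34 ± 1.12 (limma adjusted p = 0.000578). Lyz2, the macrophage lysozyme, had levels of 6.87, 6.98, 6.84 and 6.55 in the line, against -2.22 and -2.14 in EpiSC (difference 8.99, limma adjusted p = 0.000609). The groups were far apart for both, but the genes are close paralogs whose probes may share signal. Gkn2, a gastrokine of the stomach lining, was at 3.40 to 3.86 in the NOD EpiSC-like ES line and not well above background on either EpiSC array (-5.54 and -5.36). A gene of this kind has only a bound, set by the lowest signal well above background on each EpiSC array, and Gkn2 was at least 531-fold higher (limma adjusted p = 3.16e-06). The calcium-binding S100g was at least 399-fold higher and the lung chemokine Cxcl15 at least 54.1-fold higher. The 20 also held the water channels Aqp8 and Aqp4 and the peptide transporter Slc15a2, and 12 of the 20 were well above background on no EpiSC array. A second Slc15a2 probe read 0.72, against 5.78 for the one used.

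Several of these genes are known from macrophages, so a list of 29 macrophage markers was written after the values were seen and serves as a description only. All 29 were higher in the NOD EpiSC-like ES line, and 21 of them rose (median 3.51, and 3.33 when dim genes were set to their bounds). Their summed level, the log2 of the summed linear signals, was 6.91 to 7.29 in the NOD EpiSC-like ES line, against 1.43 to 1.58 in EpiSC, and 8.26 to 8.53 in the NOD EpiSC-like iPS line. Most of that signal was Lyz2, and without it the summed levels were 4.74 to 4.95 in the NOD EpiSC-like ES line, against 1.30 to 1.47 in EpiSC, and 7.10 to 7.39 in the iPS line, a sum chosen after seeing the data. Of the 29, 25 were well above background on all 4 arrays of the line, and 9 were so on neither EpiSC array. C1qc, a chain of complement C1q, had levels of 1.02, 1.12, 0.98 and 0.59 in the NOD EpiSC-like ES line, against -5.50 and -7.24 in EpiSC, and was at least 110-fold higher (limma adjusted p = 0.000136). Ctss, the lysosomal protease cathepsin S, had levels of 1.65, 1.88, 1.74 and 1.80 in the NOD EpiSC-like ES line, against -4.53 and -4.70 in EpiSC (difference 6.38). The 4 arrays of the line were close together for both genes, and the EpiSC arrays were near or at background. The surface receptors Adgre1 (4.65) and Csf1r (2.19) and the mannose receptor Mrc1 (at least 31-fold) rose too. Other probes gave smaller differences, down to 0.70 for Adgre1 and 0.90 for Csf1r. The 8 not called included Spi1 (PU.1), the macrophage lineage factor, which was dim at -5.75 to -3.96 in the line, against -5.69 and -6.53 in EpiSC. Of 11 T and B lymphocyte markers limma called 0, also at an unadjusted p under 0.05 (median 0.17).

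Promoter windows of 2 called macrophage markers, Lyz2 and C1qc, are shown. Motif shares cover all list members with a window, called or not. As the list was written after the values were seen, the shares describe it and test nothing about its regulation. RefSeq windows on GRCm38.p6, from 250 bases before to 50 after the start, were found for 23 of the 29 genes. AGGAAGT, the core of many ETS and PU.1 sites, was searched on both strands and was present in 9 of the 23 windows (39.1%), against 10.7% of windows of 27025 genes. In the 2 printed here it lies on the reverse strand, so the capitals read ACTTCCT. The Lyz2 window is chr10:117282223-117282522 on the minus strand, with the match 100 bases upstream of the start, and the C1qc window is chr4:136892865-136893164 on the minus strand, with the match 195 bases upstream.
Lyz2: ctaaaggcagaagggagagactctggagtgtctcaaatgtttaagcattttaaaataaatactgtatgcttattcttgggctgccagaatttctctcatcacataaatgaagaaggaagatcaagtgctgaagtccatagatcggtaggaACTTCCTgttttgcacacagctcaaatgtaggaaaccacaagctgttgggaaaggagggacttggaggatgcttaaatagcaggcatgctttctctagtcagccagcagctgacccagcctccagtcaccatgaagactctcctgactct
C1qc: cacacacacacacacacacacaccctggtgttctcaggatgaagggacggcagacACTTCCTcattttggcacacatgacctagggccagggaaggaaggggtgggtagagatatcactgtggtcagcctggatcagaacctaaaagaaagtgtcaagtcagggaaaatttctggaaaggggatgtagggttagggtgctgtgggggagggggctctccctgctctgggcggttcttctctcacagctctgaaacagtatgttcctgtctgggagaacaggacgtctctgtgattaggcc
A match describes the letters only, and binding was not measured. The longer motif GAGGAAGT contains AGGAAGT and was in 4 of the 23 windows (17.4%, against 3.69%), and the shorter GAGGAA was in 16 (69.6%, against 31.3%). Of the 7 motifs searched, the RFX half-site GTTGCCA was in 1 (4.35%, against 5.02%), and the octamer ATGCAAAT, an NF-kB site and an interferon response element were in 0 of the 23. These last were in 1.97%, 0.174% and 0.0814% of windows of all genes, so 0 of 23 was likely for any list and says little.

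Chemokines and complement were the other immune groups, again listed after the values were seen. Of 26 chemokines 15 rose (median 3.03). Ccl4, a macrophage inflammatory protein, had levels of 2.26, 2.67, 2.11 and 1.96 in the NOD EpiSC-like ES line and was not well above background in EpiSC (-5.49 and -5.72), at least 232-fold higher (limma adjusted p = 5.92e-05). Ccl2, the monocyte chemoattractant, had levels of 6.15 to 6.30 in the line, against 1.88 and 2.25 in EpiSC, and rose by 4.14. Of 23 complement and acute phase genes 17 rose (median 3.27), including the central complement component C3. C3 had levels of 4.59, 4.70, 4.51 and 4.37 in the NOD EpiSC-like ES line, against -0.69 and -0.78 in EpiSC (difference 5.28 ± 0.35, limma adjusted p = 1.53e-05). A second C3 probe read 1.97. The LPS-binding protein Lbp rose by 5.35 and complement C4b by 6.15. Of 23 interferon response genes 3 rose (median 1.07), led by the transcription factor Irf1 (2.17).

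Genes of astrocytes and of ciliated cells were examined next. In the glial and neurosecretory list 5 of 15 rose, 1 fell and the median was 1.76, and in an astrocyte list written after the values were seen 12 of 22 rose (median 2.93). Mlc1, a membrane protein of astrocyte endfeet, had levels of 6.18, 6.39, 6.19 and 5.83 in the NOD EpiSC-like ES line, against 1.31 and 1.22 in EpiSC (difference 4.88 ± 0.72, limma adjusted p = 0.002). The intermediate filament Gfap had levels of 0.66, 0.01, 0.43 and 0.37 in the line, against -4.47 and -4.33 in EpiSC (difference 4.77). Aqp4, the astrocyte water channel, rose by 6.29 and the potassium channel Kcnj10 by 5.43. Sox9, a glial and progenitor SOX factor, differed by 0.32 and was not called. The summed level of the astrocyte list was 7.13 to 7.52 in the NOD EpiSC-like ES line, against 4.54 to 4.66 in EpiSC. Of 19 early neural genes only Hes5, a Notch target, was called, and it fell by 1.94.

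Of 30 motile cilia genes, listed after the values were seen, 17 rose and all 30 had a positive difference (median 1.77). Foxj1, the regulator of motile ciliogenesis, had levels of 3.12, 3.41, 3.24 and 3.31 in the NOD EpiSC-like ES line, against -0.25 and 0.02 in EpiSC (difference 3.39 ± 0.77, limma adjusted p = 0.0201). The axonemal genes Cfap43 (5.70) and Dnah9 (3.16) and the radial spoke gene Rsph4a (4.01) rose likewise. Other probes gave smaller differences, down to 1.14 for Cfap43 and 0.15 for Dnah9. Rfx3, an RFX factor of ciliogenesis, was dim in both groups and was not called (difference 0.17). The summed level of the cilia list was 5.55 to 5.74 in the NOD EpiSC-like ES line, against 3.59 to 3.60 in EpiSC. GTTGCCA, an RFX half-site, was searched on both strands and was in 7 of 26 cilia windows (26.9%), against 5.02% of windows of all genes. AGGAAGT was in 2 of the 26 (7.69%, against 10.7%), GAGGAA in 8 (30.8%, against 31.3%) and the other 4 motifs in 0. Those 4 were each in at most 3.69% of windows of all genes, so 0 of 26 says little. Windows of a pair of called genes are shown with the reverse-strand match TGGCAAC in capitals. Cfap44, which rose by 4.17, has it at 130 and 20 bases upstream in chr16:44394549-44394848 on the plus strand, and Cfap161, at least 20.4-fold higher, has it at 67, 60 and 40 bases upstream in chr7:83794790-83795089 on the minus strand.
Cfap44: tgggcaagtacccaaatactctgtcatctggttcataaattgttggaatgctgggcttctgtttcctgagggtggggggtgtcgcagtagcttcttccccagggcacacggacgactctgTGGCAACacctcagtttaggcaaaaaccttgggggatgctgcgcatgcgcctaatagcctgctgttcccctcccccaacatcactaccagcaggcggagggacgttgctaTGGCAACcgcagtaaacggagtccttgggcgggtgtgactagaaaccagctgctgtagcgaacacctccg
Cfap161: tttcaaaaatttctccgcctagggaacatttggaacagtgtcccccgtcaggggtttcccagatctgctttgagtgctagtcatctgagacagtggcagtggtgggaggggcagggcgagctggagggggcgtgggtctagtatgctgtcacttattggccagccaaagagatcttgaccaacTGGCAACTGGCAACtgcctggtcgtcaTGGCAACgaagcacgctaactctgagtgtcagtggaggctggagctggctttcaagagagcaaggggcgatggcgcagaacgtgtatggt
These windows are also RefSeq sequence of GRCm38.p6, and a match is a description of the letters.

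**Figure D4:**
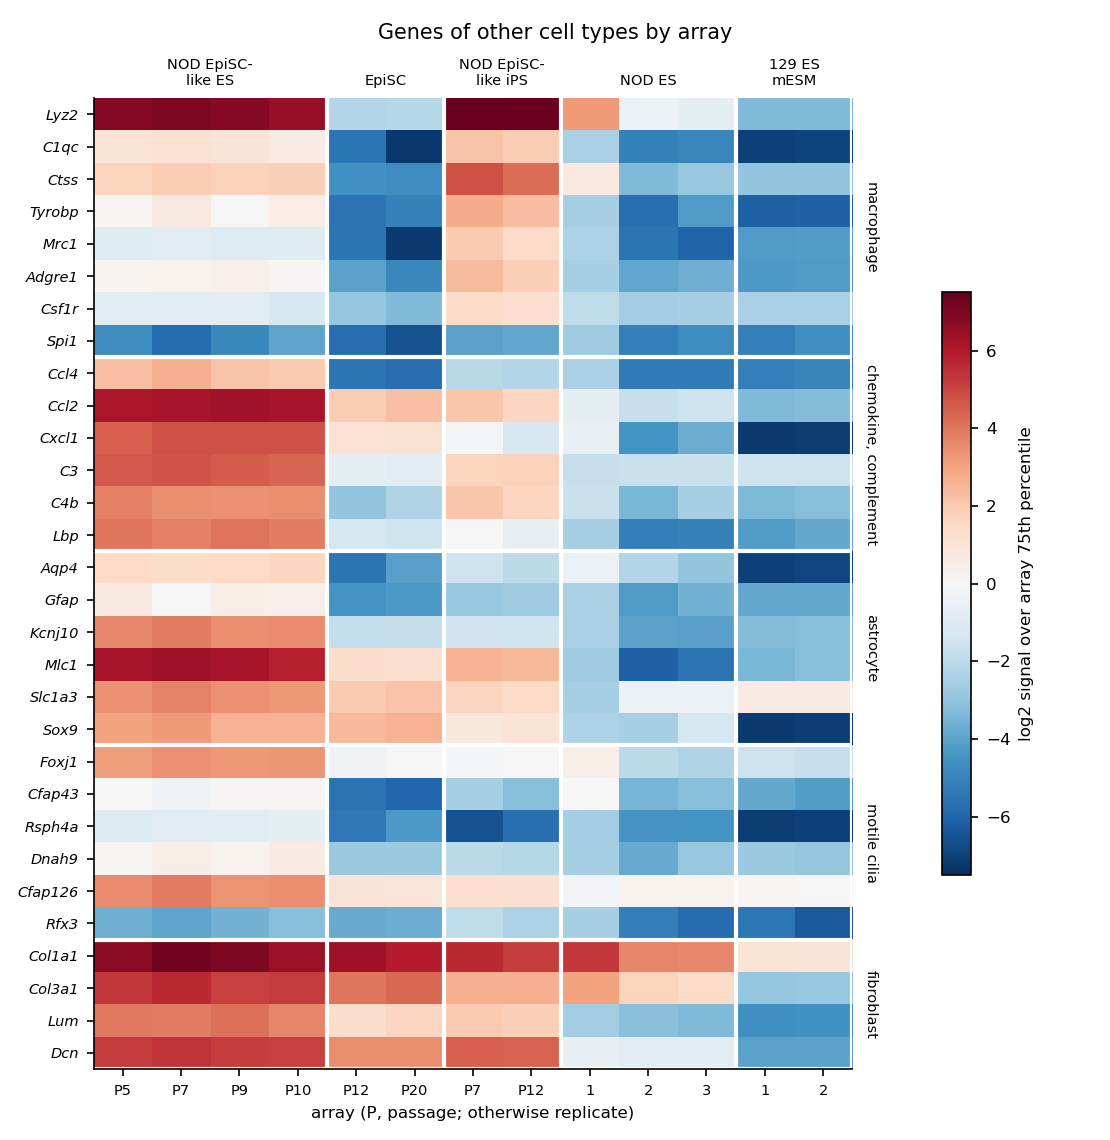
Level (colour, log2 signal over the array's 75th percentile) of macrophage, chemokine and complement, astrocyte, motile cilia and fibroblast genes (rows) on each array (columns) of 5 groups. The 4 NOD EpiSC-like ES arrays are alike and higher than EpiSC for most of these genes, while Rfx3 and Sox9 differ little and Col1a1 is high in both.

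Feeder fibroblast markers were measured well above background on all arrays of both groups in 22 of 22 cases. Their summed level was 9.50 to 9.99 in the NOD EpiSC-like ES line, against 8.76 to 8.90 in EpiSC. Col1a1, a fibrillar collagen chain, had levels of 6.69, 7.24, 7.01 and 6.50 in the NOD EpiSC-like ES line, against 6.35 and 5.88 in EpiSC. The groups did not overlap, and the difference of 0.74 ± 0.72 was not called (limma adjusted p = 0.611). Of the 22, 21 had a positive difference (median 0.97) and 2 rose: the proteoglycan lumican Lum (2.44) and Col6a2 (1.70). Over all genes 4.96% rose. Without the pair of arrays that stood apart 19 of the 22 rose, against 15.1% of all genes. The part of fibroblasts, macrophages or glial cells in the differences between the groups was not tested.

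Extraembryonic endoderm genes rose in 3 of 18 cases (median 1.23), and 12 rose without the pair of arrays that stood apart. Over all genes 4.96% rose, and 15.1% without that pair. Lama1, a laminin chain of embryonic basement membranes, had levels of 2.46, 2.29, 2.65 and 2.74 in the NOD EpiSC-like ES line, against -1.96 and -2.18 in EpiSC (difference 4.61 ± 0.29, limma adjusted p = 1.26e-05). The growth factor receptor Pdgfra (2.79) and the lipoprotein Apoe (1.91), both also expressed outside the yolk sac, were the other two. In the retinoid pathway Aldh1a2, which makes retinoic acid, rose by 2.41 ± 0.44 (limma adjusted p = 0.00686), while Cyp26a1, which degrades it, fell by 1.49 ± 0.40 (limma adjusted p = 0.0418). With slide as a fixed block the adjusted p was 0.0511 for Aldh1a2 and 0.162 for Cyp26a1. The retinaldehyde reductase Dhrs3 rose by 1.25.

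X-linked and Y-linked transcripts were measured side by side. Xist, the noncoding RNA that coats the inactive X, had levels of -0.98 to -0.85 in the NOD EpiSC-like ES line, against -3.11 and -2.88 in EpiSC. Its difference of 2.09 was not called (limma adjusted p = 0.0707; 4.94e-06 without the pair of arrays that stood apart). The Y-linked Ddx3y was at -0.87 to -0.57 in the line, against 1.21 and 1.07 in EpiSC (difference -1.88, limma adjusted p = 0.447). Xist and Ddx3y were both well above background on all 4 arrays of the line. Of 23 imprinted genes 1 rose and 3 fell: Rasgrf1, a Ras exchange factor, rose by 2.27, and the amino acid transporter Slc38a4 fell by 1.57. A second Slc38a4 probe read -0.26. Of 38 Hox genes 31 had a positive difference (median 0.69), 1 rose and 1 fell. Over all genes 4.96% rose and 4.30% fell, and the imprinted rise and the Hox calls do not exceed those shares.

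**Figure D5:**
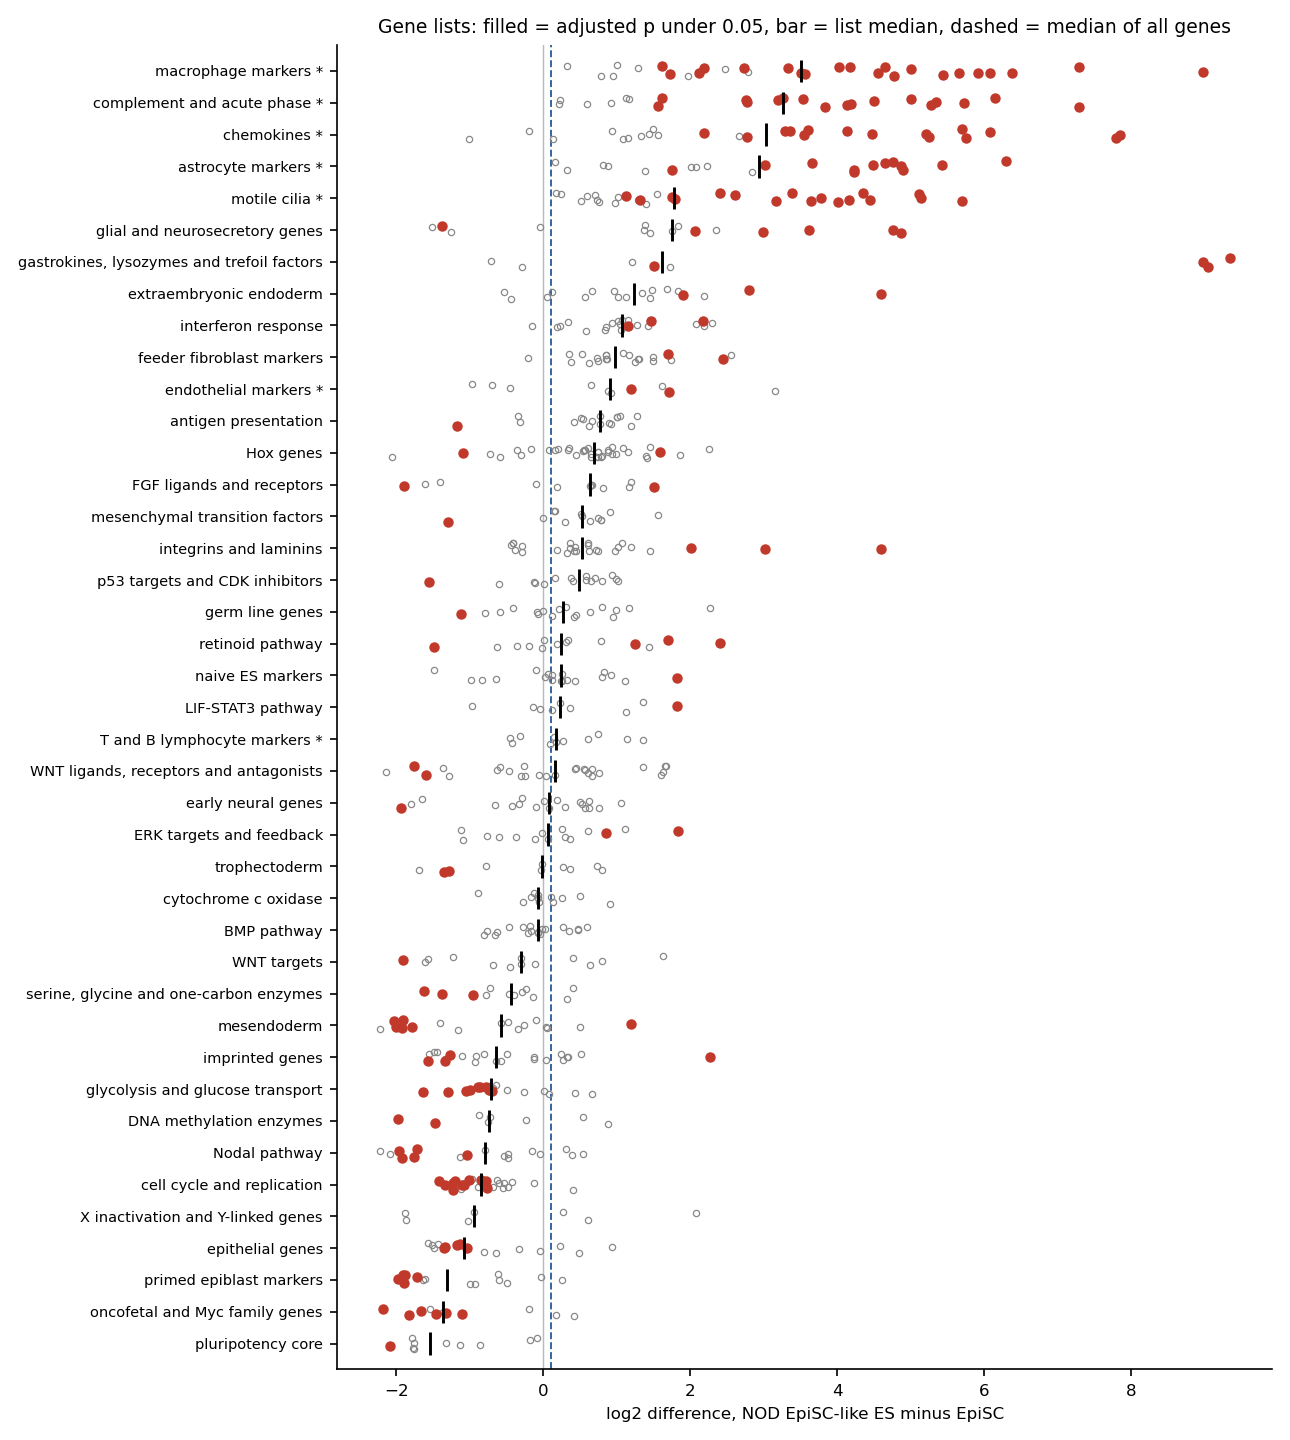
Log2 difference, NOD EpiSC-like ES minus EpiSC (x axis), of each tested member of 41 gene lists (rows); filled points are called, bars are list medians, the dashed line is the median of all genes (0.10), and asterisks mark the 7 lists written after the values were seen. Macrophage (median 3.51), complement and chemokine lists lie highest, and the pluripotency core (median -1.54) lies lowest.

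The NOD EpiSC-like iPS line, the other EpiSC-like line of the strain (2 arrays), was compared to show where the 2 EpiSC-like lines differ. This comparison shares the 4 arrays of the line with the one above. In the NOD EpiSC-like ES line 2684 genes rose (11.6%) and 3280 fell (14.1%) relative to the iPS line, and without iPS line passage 12 the calls numbered 2466. They numbered 2133 with slide as a fixed block and 11717 without the pair of arrays that stood apart. Fgf5, Dnmt3b and Gsc rose in the ES line. Gsc was at 0.51 to 0.86 in the ES line, against -2.69 and -2.88 in the iPS line (difference 3.49, limma adjusted p = 9.9e-05). Of the macrophage markers 16 of 29 fell and none rose, as with Csf1r at -1.23 to -0.78 in the ES line, against 1.39 and 1.27 in the iPS line (difference -2.23, limma adjusted p = 0.00044). Astrocyte genes rose in 8 of 22 cases and motile cilia genes in 14 of 30, with none falling. Lyz2 (-0.72) and Gkn2 (0.00) were not called between these lines.

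A NOD against non-NOD comparison within ES cells, 3 NOD ES arrays against 2 of 129 ES mESM cells, uses no array of the first comparison. Both mESM arrays were of passage 8 on slide 5, and nothing in the labels says that they are separate cultures. The NOD ES arrays were on slides 6, 4 and 4, so no slide held both groups. In NOD ES 1324 genes rose (5.71%) and 703 fell (3.03%), and with slide as a fixed block limma's calls numbered 0 (3549 genes at an unadjusted p under 0.05). Without either mESM array they numbered 144 or 165. The 391 genes called here and in the first comparison were 18.2% of the 2150 and 19.3% of the 2027. Of the 391, 164 had the same direction and 227 the opposite one. Among the same-direction genes, Aqp4 had levels of -0.50, -2.19 and -2.97 in NOD ES, against -6.99 and -6.90 in mESM cells (difference 5.06 ± 0.61, limma adjusted p = 0.0013). The chemokine Ccl7 differed by 4.01. Without the pair of arrays that stood apart, these differences were 4.37 and 3.76. The highest of the 3 NOD ES levels of Aqp4 was that of replicate 1.

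The interaction of the comparisons was called higher for 900 genes (3.88%) and lower for 1479 (6.37%). It uses the same NOD ES and mESM arrays, which share no slide. Mest, a paternally expressed imprinted gene, was at 4.12 to 4.38 in the NOD EpiSC-like ES line, against 4.96 and 5.17 in EpiSC, and at 3.22, 1.90 and 1.82 in NOD ES, against -3.91 and -4.68 in mESM cells. The levels were above 0 on every array of these groups except those of the mESM cells, and the interaction was -7.41 ± 0.59 (limma adjusted p = 0.000117; -6.96 without the pair of arrays that stood apart). Usp29, imprinted in the Peg3 domain, gave -7.77, with levels of -1.90 to -1.14 in the NOD EpiSC-like ES line, against -0.07 and 0.06 in EpiSC, and of 0.90 to 2.77 in NOD ES, against -4.17 and -4.34 in mESM cells. Ccl4 gave 7.12, with the levels in the line and EpiSC given above and levels of -2.41, -5.26 and -5.23 in NOD ES, against -5.13 and -4.94 in mESM cells. With slide as a fixed block 13 interaction calls were left, 13 higher and 0 lower. The negative interactions of Mest and Usp29 were therefore not called in that setting. Leaving out either mESM array also lowered the number of calls.

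Of the 10 genes with the largest range over the 4 passages of the NOD EpiSC-like ES line, passage 7 was highest in 8 and lowest in 1. Cntn5, a contactin of neurons, had levels of -5.00, -0.22, -4.46 and -1.50 at passages 5, 7, 9 and 10, and Trim55, a muscle RING finger protein, -4.08, -0.46, -3.83 and -1.13. The NOD EpiSC-like ES arrays were on slides 3, 1, 5 and 4 at passages 5, 7, 9 and 10, so passage and slide cannot be told apart.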

How the data were processed

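RNA of 16 cultures was measured on one-colour Agilent mouse arrays, of which 6 form the comparison described above. Spot intensities were extracted with Agilent Feature Extraction, per the file headers, and the processed signal is a background-subtracted intensity without scaling between arrays. A deposited table of log2 values, whose columns follow the order of each array's mean spot signals and share their median, served as an alternative. limma is named in the submitters' processing notes, which give no settings.

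Control spots and outlier spots were left out, and the spots of each probe were averaged. Processed signals were taken to log2, and each array's 75th percentile was subtracted. Of 41174 gene probes, 34350 were well above background on at least 2 arrays. The probe with the highest mean stood for each gene, which left 23203 genes. Of 877 called genes with several probes, 108 had probes that differed in sign, and other probes are not given for every gene. Of the probes, 22951 were named through RefSeq accessions and 8455 kept the file's name. A model with a mean for each of 7 groups was fitted with limma 3.58.1 under R 4.3.3, with empirical Bayes moderation and Benjamini-Hochberg adjustment, and the test was tried on simulated data. An exact permutation of 4 against 2 arrays cannot reach 0.05, so none is given. Arrays carry no read depth, and their number limits the precision.

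Named genes are those of the core, naive, primed, fibroblast and sex-chromosome lists, up to 6 members of each other list with the largest difference, called ones first, the 20 that rose and the 20 that fell most, and the 10 leading genes of the same-direction, interaction and passage-range rankings. A further 7 lists (macrophage, chemokine, complement and acute phase, astrocyte, motile cilia, lymphocyte and endothelial) and genes named from them were chosen after their values were seen. Some named items are not reported here. The members and all lists were chosen with earlier results of these data known. The alternatives changed the background correction, scaling, filter, probe choice, arrays and slide term.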

Additional observations from a re-analysis of the deposited data

Results flagged for a closer look

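Among the 4 arrays of the NOD EpiSC-like ES line, 1 array lay far from the other 3 for 6 of 112 genes named in the text, by a gap above Dixon's critical value. Chance gives this for about 1 gene in 20, so 6 is near what chance gives. Passage 10 stood apart for Csf1r (level -1.23), Dhrs3 (0.79), Hsd17b6 (-3.92) and Zfp42 (-2.71), and passage 7 for Lhx1 (0.79) and Top2a (0.61). Zfp42 was well above background on 1 array of the line.

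The difference between NOD EpiSC-like ES and EpiSC was itself different from that between NOD ES and 129 ES mESM cells, by limma's interaction, for the 10 genes that follow. It was lower for Trim55 (-9.52), Krt2 (-8.59), Tmem52b (-8.44), Cdcp1 (-8.20), Usp29 (-7.77), Myo1e (-7.47) and Mest (-7.41). With slide as a fixed block limma called 0 genes lower, so none of these calls was kept there. It was higher for Gkn2 (7.96), Muc3 (7.45) and Ccl4 (7.12). For Krt2, Cdcp1 and Myo1e another probe of the gene gave a difference of the opposite sign between NOD EpiSC-like ES and EpiSC. None of the 7 genes with a negative interaction was called between NOD EpiSC-like ES and EpiSC, and each was higher in NOD ES than in mESM cells, with log2 differences of 5.96 (Krt2) to 7.51 (Trim55).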

How the results depend on the processing

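The number of called genes between NOD EpiSC-like ES and EpiSC was 2150. It was 3502 with normexp and quantile normalization, 5820 with only the 6 arrays of both groups and 7398 without the pair of arrays that stood apart, and 448 to 1697 when 1 array was left out. It stayed within 1.5 times of 2150 with quantile normalization, the deposited table, the mean over probes, both filters and slide as a fixed or random block. Quantile normalization moved the median of all genes to -0.07, against 0.10. The 5964 calls against the NOD EpiSC-like iPS line became 11717 without the pair of arrays that stood apart and 2133 with slide as a fixed block, and were 2466 to 4906 without 1 iPS array. The 2027 calls between NOD ES and mESM cells became 6000 and 0 (3549 at an unadjusted p under 0.05), with 144 to 3003 when 1 array was left out. The 2379 interaction calls became 7292 and 13, with 758 to 4290 when 1 array was left out. The cause of these changes was not tested. Of 89 called genes named in the text, 69 stayed called with slide as a fixed block, 71 with the mean over probes, and 45 and 45 without EpiSC passage 12 or 20. No called gene named in the text reversed, and a turned sign was not counted where neither setting called the gene. No paired analysis was possible because the labels give the groups no shared replicate number, and the slides that held both groups were used as a block instead. The EpiSC side rests on 2 arrays, and dim genes have only bounds.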

Other observations

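Gene groups not described above are read against the 4.96% of all genes that rose and the 4.30% that fell in the NOD EpiSC-like ES line relative to EpiSC. Of 16 p53 targets and CDK inhibitors 1 was called: Pmaip1 (Noxa), a BH3-only death gene, had levels of 1.07 to 1.53 in the NOD EpiSC-like ES line, against 2.92 and 2.91 in EpiSC, and fell by 1.55 ± 0.22 (limma adjusted p = 0.00139). Of 17 antigen presentation genes 14 had a positive difference (median 0.77), and 1 was called. That gene was H2-Ab1, an MHC class II chain, which fell by 1.18, while another of its probes read 0.23. With slide as a fixed block the calls of H2-Ab1, Itga11, Gata3 and Junb were lost, with limma adjusted p = 0.0753 for H2-Ab1. Of 18 germ line genes Tex19.1, a gene of germ cells and pluripotent cells, fell by 1.12 ± 0.18 (limma adjusted p = 0.00329).

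Integrins and laminins gave 3 rises of 26 (median 0.52). The hemidesmosome subunit Itgb4 had levels of 1.94 to 2.36 in the NOD EpiSC-like ES line, against -0.78 and -1.04 in EpiSC, and rose by 3.02 ± 0.25 (limma adjusted p = 5.79e-05). The collagen-binding integrin Itga11 rose by 2.01. Of 10 trophectoderm genes Gata3 (-1.36) and Tfap2c (-1.29) fell. Of 15 ERK targets the stress-response gene Ier3 (1.84) and the AP-1 subunit Junb (0.86) rose. Of 10 endothelial markers, listed after the values were seen, 2 rose (median 0.90), and of 13 mesenchymal transition factors 1 fell (median 0.53).

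The pair of genes with the largest falls were dim in the NOD EpiSC-like ES line. Mcpt9, a mast cell protease, was not well above background on any array of the NOD EpiSC-like ES line and was at -0.22 and -3.85 in EpiSC, so that it was at least 18.1-fold lower (limma adjusted p = 0.0407). Hsd17b6, a steroid dehydrogenase, had levels of -5.68 to -3.92 in the line, against -0.19 and -1.91 in EpiSC, and fell by 4.13. For both genes the EpiSC arrays lay far from each other. The hormone precursor Pomc, among the 20 that fell most, was brighter and had levels of 1.54 to 1.81 in the line, against 3.85 and 3.85 in EpiSC, and fell by 2.20 ± 0.26 (limma adjusted p = 0.000746). All 20 were also lower on both NOD EpiSC-like iPS arrays than on both EpiSC arrays.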
